A study of Mus musculus with 9 samples.

Results

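The circadian clock genes were followed in bulk RNA-seq of mouse liver after acetaminophen (APAP) overdosing and after treatment with adipose-derived mesenchymal stem cells (AMSCs). The 10 members were the rows of the deposited table named Arntl, Clock, Per1, Per2, Per3, Cry1, Nr1d1, Nr1d2, Dbp and Tef, out of 54532 genes. All animals were male C57BL/6 mice, 5 to 7 weeks old by the study's methods, with 3 livers in each of 3 groups. The NC group was the normal control. Mice of the APAP group were fasted overnight, received 500 mg/kg APAP and were studied after 6 h. In the AMSC group, animals were given the same dose and, directly afterwards, 200000 AMSCs through the tail vein, and were also studied after 6 h. The AMSCs had been grown from inguinal fat of C57BL/6 mice, and their number left in the liver was not measured in these data. By the methods, all animals were fasted overnight before APAP, and whether this takes in the NC mice, which received none, is not said. The hour of the day at which livers were taken is not given in the sources used here. Hour and feeding are known to set clock gene levels in liver, and they cannot be told apart from APAP in the comparisons with the NC group.

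The molecular clock is a feedback loop of transcription factors that runs in nearly every cell. ARNTL (also called BMAL1) and CLOCK form the activating pair, which binds E-box sequences and switches on the Per, Cry and Nr1d genes. PER and CRY proteins return to block that pair, while NR1D1 and NR1D2 (REV-ERB alpha and beta) repress Arntl through the elements that the ROR receptors use to activate it. DBP and TEF are output factors of the PAR bZIP family, which carry the rhythm to metabolic genes through D-box sequences. In liver, this loop is known for timing bile acid, lipid and drug metabolism, and feeding is among its strongest cues. Several Per genes and Nr1d1 also respond within hours to stress, hormone and growth factor signals.

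The libraries held 13418921 to 16210930 reads on genes. Per kilobase of gene, 1 read was worth 0.0578 to 0.0807 FPKM, the unit of the deposited values (fragments per length of gene, scaled between libraries by the authors). All 10 members were among the 9699 genes that averaged 1 FPKM or more across all 9 libraries, which were tested with limma on log2(FPKM + 1). The member with the fewest reads was Per3, with 17 reads in APAP replicate 2. A gene was called a DEG at the study's thresholds, an adjusted p ≤ 0.05 with an absolute log2 fold change ≥ 1. Fold changes on this scale understate the change of genes with low FPKM, so the ratio of the group means is given beside them. Replicates are biological replicates by the study's methods. The exons of Arntl and Tef share 33 and 193 bases with Gm45355 and Gm17597 on the other strand. NC replicate 3 carried another date in its title than the other 8 libraries, and a replicate number there other than the 3 of its description, from which its number was taken. Its values were the lowest of the NC group for Clock, Per1, Per2, Cry1 and Nr1d1.

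Promoter sequence was available for 9 of the 10 members, Per2 being the member not listed, as the 300 bases from 250 before to 50 after each RefSeq start site on GRCm38.p6. The sequences below are shown because they hold the short elements through which the members are known to regulate each other. Capitals mark the elements, which are the E-box CACGTG, the related CACGTT (read as AACGTG on the other strand), the D-box TTATGTAA and the ROR element.

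Per3, chr4:151044794-151044892, minus strand: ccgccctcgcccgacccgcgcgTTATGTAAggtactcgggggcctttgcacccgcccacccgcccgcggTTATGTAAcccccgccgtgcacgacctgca
Per1, chr11:69098761-69098810, plus strand: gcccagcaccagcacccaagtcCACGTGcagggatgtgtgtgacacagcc
Cry1, chr10:85185087-85185155, minus strand: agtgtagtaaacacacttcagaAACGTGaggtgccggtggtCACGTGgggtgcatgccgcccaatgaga
Nr1d1, chr11:98775378-98775427, minus strand: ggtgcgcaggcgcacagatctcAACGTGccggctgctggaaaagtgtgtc
Tef, chr15:81811254-81811303, plus strand: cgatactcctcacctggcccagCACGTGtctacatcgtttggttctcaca
Arntl, chr7:113207528-113207556, plus strand: ggaaggcagAAAGTAGGTCAgggacggag

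The Per3, Cry1 and Nr1d1 stretches lie outside the annotated gene, those of Per1 and Tef lie in an intron before an inner start site, and that of Arntl lies in its exon. Tef held another CACGTG, not shown, 127 bases before its other start site. That stretch lies in an exon of Tef that overlaps Gm17597 on the other strand. CACGTG was present in 3 of the 9 members (Per1, Cry1 and Tef) and in 7.15% of all 32851 promoters of the same length. A member was counted with a match at any of its start sites (14 over the 9 members), whereas the shares count each promoter singly. CACGTT was present in Cry1 and Nr1d1 and in 4.68% of all promoters. Per3 held TTATGTAA at 205 and at 158 bases before its start, a sequence found in 0.938% of all promoters. The ROR element stood 26 bases after the start of Arntl and in 0.384% of all promoters. The cAMP response element TGACGTCA was in 0 members within this window and in 1.79% of all promoters. For Per1 and Tef, every window searched began inside the annotated gene. The sequence before the gene start was thus not searched for these members, for this or any other element. Both strands were searched, no motifs overlapped in the members, and a match is a stretch of letters, not a measured binding site.

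After APAP, 8 of the 10 clock genes were DEGs against the NC group, and they moved in opposite directions. Arntl, Per1, Nr1d1 and Nr1d2 were higher, and Per2, Per3, Dbp and Tef were lower. Of all genes tested, 5.09% were DEGs with higher and 2.80% with lower values, and 25.9% passed the adjusted p in either direction. The groups did not overlap in the same 8 members, beside 43.2% of all genes. The median log2 fold change of the 10 members was 0.18, beside -0.0043 over all genes, with 4 rises and 4 falls among the members.

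**Figure D1:**
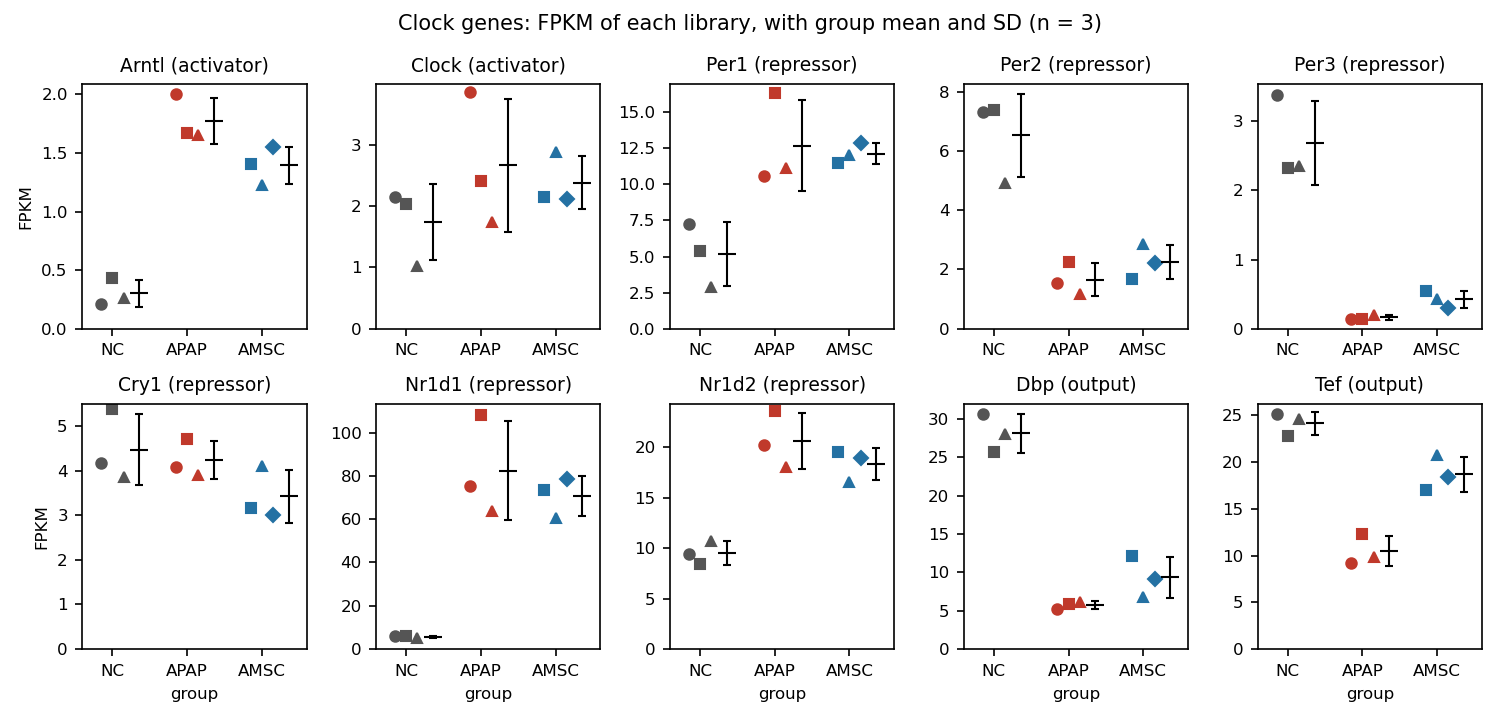
FPKM of the 10 clock genes in each of the 9 livers, 1 panel per gene, with points shaped by replicate number and black bars for the group mean ± SD (n = 3). Nr1d1 lay at 5.19 to 6.17 FPKM in the NC group and at 60.6 or more in all 6 APAP and AMSC livers, whereas Per3 and Dbp lay below all NC livers there.

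Of the activating pair, Arntl (ENSMUSG00000055116, chr7:113207465-113314126) rose and Clock did not pass the test. Arntl was at 0.215, 0.430 and 0.263 FPKM in the NC livers and at 2.002, 1.67 and 1.65 FPKM in the APAP livers. All APAP livers thus lay above all NC livers, and the group mean went from 0.303 ± 0.113 to 1.78 ± 0.196 FPKM (SD, n = 3), which was 5.87-fold. The log2 fold change of Arntl was 1.09 (SE 0.13, adjusted p = 0.00145). Clock (ENSMUSG00000029238, chr5:76209868-76304792), which encodes the partner of ARNTL, was at 2.15, 2.03 and 1.02 FPKM in the NC group and at 3.86, 2.40 and 1.74 FPKM in the APAP group. These ranges overlapped, and the log2 fold change of Clock was 0.41 with a 95% confidence interval of -0.17 to 0.99 (adjusted p = 0.266).

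The repressors did not move as a block. On the log2 scale with the pseudocount, the largest change of any member was that of Nr1d1 (ENSMUSG00000020889, chr11:98767932-98775333), the nuclear receptor that represses Arntl. It was at 6.17, 5.83 and 5.19 FPKM in the NC livers and at 75.5, 108.1 and 63.8 FPKM in the APAP livers. The mean rose from 5.73 ± 0.498 to 82.5 ± 23.0 FPKM, which was 14.4-fold (log2 fold change 3.60, SE 0.20, adjusted p = 5.11e-05). By size of the rise, Nr1d1 was number 36 of the 9699 genes tested. The exons of Nr1d1 share 263 bases with Thra on the other strand, and whether the libraries keep strand is not stated. Thra, the thyroid hormone receptor alpha gene, was at 1.40 to 2.01 FPKM in NC livers and 1.91 to 2.62 FPKM in the APAP group. Nr1d1 was at 5.19 to 6.17 and at 63.8 to 108.1 FPKM in the same groups. The part of Thra reads in the Nr1d1 values was not tested.

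Nr1d2 (ENSMUSG00000021775, chr14:18204054-18239127), the paralog of Nr1d1 with the same target element, rose less. It was at 9.46, 8.40 and 10.8 FPKM in the NC group and at 20.3, 23.5 and 18.1 FPKM in the APAP group. The ratio of the means was 2.16 and the log2 fold change 1.03 (SE 0.14, adjusted p = 0.00252). This value lay close to the fold threshold, and without NC replicate 2 (0.96) or APAP replicate 2 (0.94) it fell short of it while still passing the adjusted p. In the NC livers Nr1d2 was therefore above Nr1d1 in FPKM, a unit per length of gene, and in the APAP livers it was below.

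The 3 Per genes, which encode the proteins that hold the activating pair in check, split. Per1 (ENSMUSG00000020893, chr11:69095217-69109960) was at 7.26, 5.37 and 2.90 FPKM in the NC livers and at 10.6, 16.3 and 11.1 FPKM in the APAP livers. The mean went from 5.18 ± 2.19 to 12.7 ± 3.16 FPKM (log2 fold change 1.19, SE 0.28, adjusted p = 0.0195). This call rested on single libraries. Without NC replicate 3, the library with the other label date, the log2 fold change of Per1 was 0.89 (adjusted p = 0.0339). The adjusted p of Per1 was 0.0541 without NC replicate 2 and 0.0659 without APAP replicate 2. The other 7 clock DEGs were also called without NC replicate 3.

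Per2 (ENSMUSG00000055866, chr1:91415982-91459324) moved the other way, with 7.31, 7.38 and 4.92 FPKM in the NC livers and 1.54, 2.26 and 1.16 FPKM in those of the APAP group. Its mean was 3.96-fold lower after APAP (log2 fold change -1.51, SE 0.20, adjusted p = 0.00209). Per3 (ENSMUSG00000028957, chr4:151003652-151044665) fell furthest among the members by the ratio of means. It was at 3.38, 2.33 and 2.35 FPKM in the NC livers, which were 542, 387 and 388 reads. In the APAP livers Per3 was at 0.147, 0.143 and 0.201 FPKM, which were 19, 17 and 26 reads. The mean was 16.4-fold lower, and the log2 fold change on the scale with the pseudocount was -1.65 (SE 0.15, adjusted p = 0.000396). Per1 and Per2 thus exchanged their order. The difference of Per1 minus Per2 in log2(FPKM + 1), which understates the log2 ratio of low values, was -0.34 ± 0.30 in the NC group and 2.36 ± 0.16 in the APAP group.

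Cry1 (ENSMUSG00000020038, chr10:85131700-85185064), which encodes the cryptochrome that acts together with the PER proteins, did not pass the test. It was at 4.16, 5.37 and 3.86 FPKM in the NC group and at 4.08, 4.71 and 3.90 FPKM in the APAP group. The log2 fold change was -0.06 with a 95% confidence interval of -0.38 to 0.27 (adjusted p = 0.798).

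Both output factors fell. Dbp (ENSMUSG00000059824, chr7:45705088-45710203) was at 30.7, 25.7 and 28.1 FPKM in the NC livers and at 5.21, 5.93 and 6.09 FPKM in the APAP livers. The mean was 4.90-fold lower (28.1 ± 2.52 against 5.74 ± 0.471 FPKM), and the log2 fold change was -2.11 (SE 0.12, adjusted p = 6.20e-05). By size of the fall, Dbp was number 34 of all genes tested. Its exons share 539 bases with Sphk2 on the other strand, which was at 8.19 to 9.12 FPKM in NC livers and 7.22 to 9.48 FPKM in the APAP group. The ranges of Sphk2 thus overlapped between these groups. Tef (ENSMUSG00000022389, chr15:81802421-81826863) was at 25.1, 22.8 and 24.6 FPKM in the NC livers and at 9.26, 12.3 and 9.86 FPKM in the APAP livers. Its mean was 2.30-fold lower (log2 fold change -1.14, SE 0.13, adjusted p = 0.00133). In bulk tissue, fewer cells of a type and less RNA per cell cannot be told apart, for these falls and for all other changes here.

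**Figure D2:**
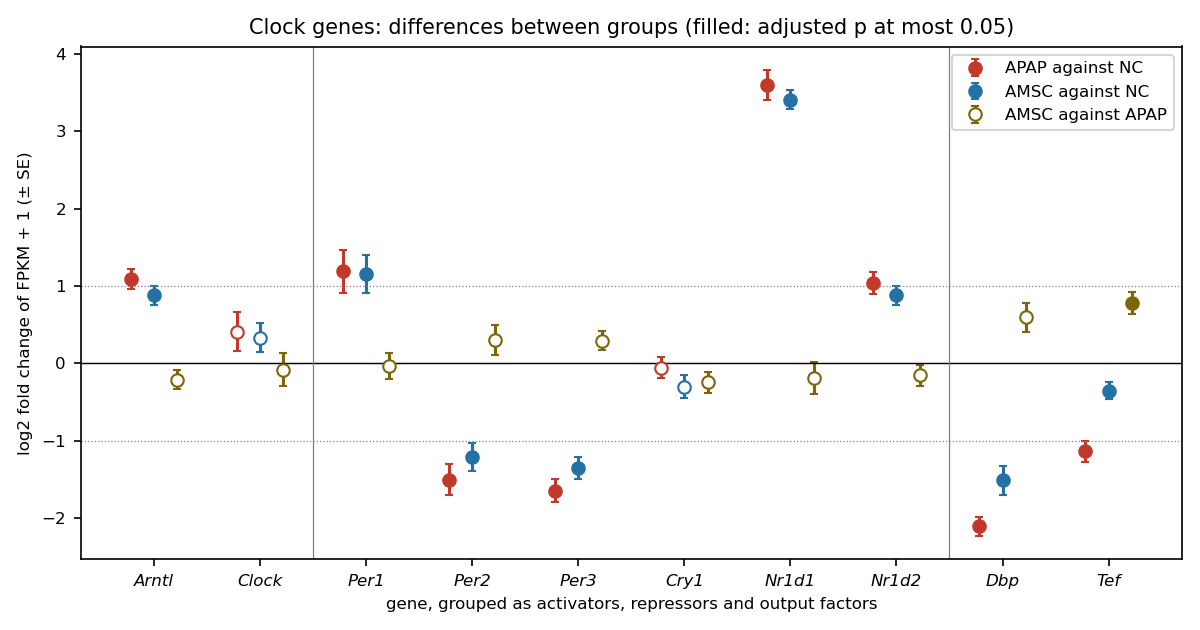
Log2 fold change of each clock gene on the log2(FPKM + 1) scale in the 3 comparisons, with bars for the standard error, filled symbols for an adjusted p of at most 0.05 in limma and dotted lines at a log2 fold change of 1 in either direction. Against the NC group, Nr1d1 stood at 3.60 after APAP and 3.41 with AMSCs, and between AMSC and APAP the filled symbol is that of Tef at 0.78.

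The activator arm was set against the repressor arm by taking, for each liver, the mean log2(FPKM + 1) of Arntl and Clock minus the mean of the 6 repressors. This balance was -1.75 ± 0.10 in the NC group, -1.43 ± 0.33 in the APAP group and -1.57 ± 0.027 in the AMSC group. The APAP livers lay from -1.73 to -1.08 and thus spanned both the AMSC livers and the highest NC liver at -1.63. With a pseudocount of 0.1 in place of 1, the difference between APAP and NC livers in this balance went from 0.32 to 1.28 and that between AMSC and NC livers from 0.18 to 0.94. Leaving out 1 library gave 0.14 without APAP replicate 1 and 0.46 at most for APAP against NC. The mean hid the split within the repressors, since the repressor mean was 2.65 ± 0.18 in the NC group and 3.09 ± 0.21 in the APAP group although 3 repressors rose and 2 fell. Nr1d1 and Dbp were the members with the largest rise and the largest fall after APAP on this scale. A wide gap between the NC and APAP groups in their difference thus follows from the choice of this pair. The difference of Nr1d1 minus Dbp in log2(FPKM + 1) was -2.11 ± 0.13 in the NC group, 3.60 ± 0.39 in the APAP group and 2.81 ± 0.28 in the AMSC group. These scores over chosen genes are given as a description, without a test.

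**Figure D3:**
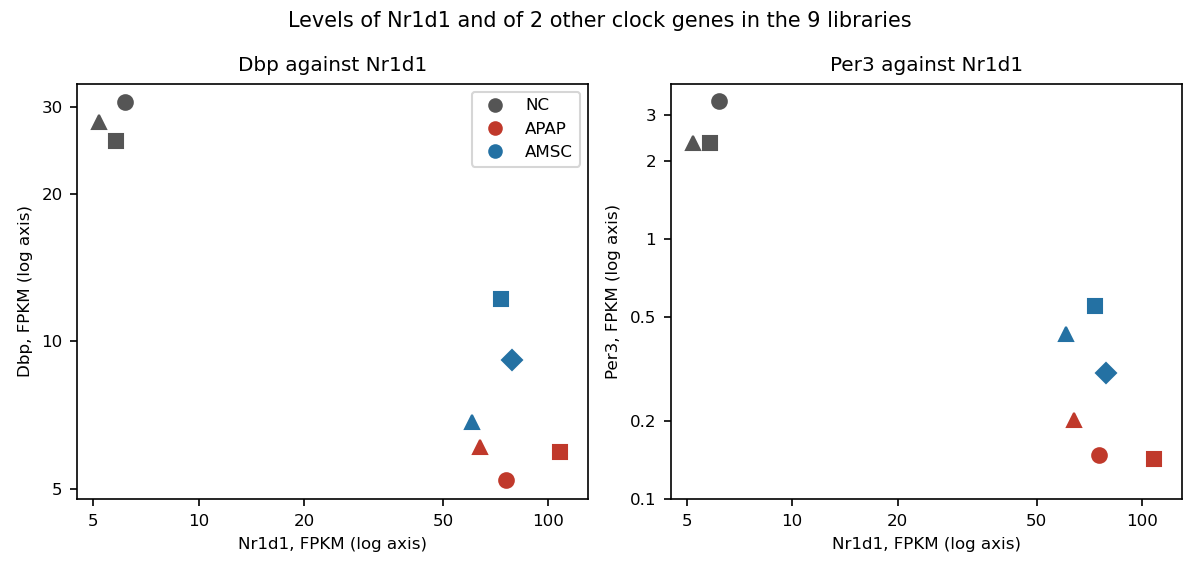
Each liver plotted by Nr1d1 on the horizontal axis against Dbp (left) and Per3 (right) on the vertical axis (FPKM, log axes), with points shaped by replicate number. The NC livers form the cluster at low Nr1d1 with high Dbp and Per3, and the 6 livers given APAP lie at 60.6 FPKM of Nr1d1 or more, with the AMSC livers above the APAP livers in Dbp and Per3.

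Between the AMSC and APAP groups, Tef was the clock gene that passed the adjusted p, with higher values in the AMSC group. Against the APAP group, 0 of the 10 members were DEGs in limma, where 0.742% of all genes were DEGs with higher and 1.22% with lower values. The adjusted p was passed by 1 of 10 members, beside 3.78% of all genes in either direction. At an unadjusted p under 0.05 there were 3 members (Per3, Dbp and Tef), and limma's voom on the recovered reads gave 0 DEGs and 3 such members. Over all settings tried, 0 members were DEGs and 1 to 3 had an unadjusted p under 0.05, with 1 under the replicate block. The share of all genes at that unadjusted p was not counted, so whether these member counts exceed it is not known. The AMSC and APAP livers did not overlap in 4 members, with Arntl lower and Per3, Dbp and Tef higher in the AMSC group, beside 27.0% of all genes. The median log2 fold change of the members was -0.059, beside 0.013 over all genes.

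Tef was at 17.0, 20.7 and 18.4 FPKM in the AMSC livers, which lay above the 9.26 to 12.3 FPKM of the APAP livers and below the 22.8 to 25.1 FPKM of the NC livers. The AMSC mean of 18.7 ± 1.90 FPKM was 1.78-fold that of the APAP group (log2 fold change 0.78, SE 0.15, adjusted p = 0.0343). The difference was below the fold threshold for DEGs. Tef did not pass the adjusted p with all genes above 0 (0.127) or with the replicate number as a block (0.169). Leaving out 1 library at a time gave log2 fold changes of 0.71 to 0.89. The adjusted p of Tef was 0.0305 without APAP replicate 2, and it was 0.0547, 0.0954, 0.0805, 0.126 and 0.116 without APAP replicate 1, APAP replicate 3, AMSC replicate 2, AMSC replicate 3 and AMSC replicate 4.

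Dbp, the other output factor, was at 12.2, 6.84 and 9.14 FPKM in the AMSC livers. All 3 were above the highest APAP liver at 6.09 FPKM, but they spread widely. The log2 fold change was 0.59 with a 95% confidence interval of 0.15 to 1.04 and did not pass the adjusted p (0.138). Sphk2, which overlaps Dbp, was at 9.81 to 11.6 FPKM in the AMSC group, above its 7.22 to 9.48 FPKM in the APAP group, and the part of its reads in the Dbp values was not tested. The mean log2 level of both output factors was 4.76 ± 0.10 in the NC group, 3.13 ± 0.13 in the APAP group and 3.82 ± 0.12 in the AMSC group.

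Among the repressors, Per3 was at 0.550, 0.432 and 0.305 FPKM in the AMSC livers, which were 84, 54 and 44 reads. These values were 2.62-fold those of the APAP group by the means, and the log2 fold change was 0.29 (SE 0.12, adjusted p = 0.228). Per2 was at 1.69, 2.85 and 2.20 FPKM, overlapping the APAP livers (log2 fold change 0.30, adjusted p = 0.443). Nr1d1 remained high at 73.3, 60.6 and 78.6 FPKM. The log2 difference of Nr1d1 from the APAP group was -0.19 with a 95% confidence interval of -0.67 to 0.29 (adjusted p = 0.673), and without APAP replicate 2, the liver at 108.1 FPKM, it was 0.021. Nr1d2 was at 19.5, 16.5 and 18.9 FPKM (log2 fold change -0.16, adjusted p = 0.580).

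Per1 was at 11.5, 12.01 and 12.9 FPKM in the AMSC livers, inside the range of the APAP livers. Its log2 fold change was -0.04 with a 95% confidence interval of -0.43 to 0.36 (adjusted p = 0.936). Cry1 was at 3.17, 4.10 and 3.01 FPKM, with a log2 fold change of -0.25 (adjusted p = 0.369). In the activator arm, Arntl was at 1.41, 1.23 and 1.55 FPKM, each below the lowest APAP liver at 1.65 FPKM. This difference did not pass the test (log2 fold change -0.21, 95% confidence interval -0.50 to 0.07, adjusted p = 0.373). Clock was at 2.16, 2.88 and 2.12 FPKM and overlapped the APAP group (log2 fold change -0.08, adjusted p = 0.871).

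Set against the NC group, which the APAP comparison shares as its control, the AMSC group had 5 DEGs among the 10 clock genes. Per1 and Nr1d1 were higher, and Per2, Per3 and Dbp were lower, where 3.92% of all genes were DEGs with higher and 2.09% with lower values. The adjusted p was passed by 8 members, 4 in each direction, beside 26.0% of all genes. The groups did not overlap in 8 members, beside 43.5% of all genes. The median of the members was 0.012, and that of all genes was 0.016. Nr1d1 was 12.4-fold the NC mean (log2 fold change 3.41, SE 0.13, adjusted p = 2.29e-06). Dbp was 2.998-fold lower (log2 fold change -1.52, SE 0.18, adjusted p = 0.000927), against the 4.90-fold of the APAP group. Tef was 1.29-fold lower (log2 fold change -0.36, SE 0.11, adjusted p = 0.0454), against 2.30-fold. The adjusted p of Tef lost the threshold in 5 of 6 fits that left out a library, reaching 0.147 without NC replicate 1.

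Of the remaining members, Per1, Per2, Per3, Arntl and Nr1d2 passed the adjusted p against the NC group. Per2 had a log2 fold change of -1.21 (adjusted p = 0.00250) and Per3 of -1.36 (adjusted p = 0.000507). Arntl at 0.88 (adjusted p = 0.00163) and Nr1d2 at 0.88 (adjusted p = 0.00171) were past the adjusted p and short of the fold threshold on this scale. By the means Arntl was 4.60-fold the NC group, and it was a DEG at a pseudocount of 0.1 (log2 fold change 1.92) and with voom (2.25). For Per1 the value was 1.15 (adjusted p = 0.0108), which was 0.85 without NC replicate 3, the library with the other label date. Clock (0.33, adjusted p = 0.239) and Cry1 (-0.30, adjusted p = 0.169) did not pass.

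Other genes of the loop were taken from lists. Npas2, which encodes a relative of CLOCK, was at 0.0121 to 0.233 FPKM and did not pass the filter. Rora encodes a receptor that activates Arntl through the element shown above. It was at 3.17 ± 0.976 FPKM in the NC group, 10.2 ± 3.33 FPKM in the APAP group and 7.79 ± 0.636 FPKM in the AMSC group, with a log2 fold change of 1.41 for APAP against NC (adjusted p = 0.00753). Between the AMSC and APAP groups Rora did not pass the test (-0.31, adjusted p = 0.482).

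Of 6 other repressors, 4 passed the filter. After APAP, 3 of these were DEGs against the NC group, all higher, beside 5.09% of all genes. Between the AMSC and APAP groups, 1 was a DEG with higher and 1 with lower values, beside 0.742% and 1.22% of all genes. For AMSC against NC livers, 2 were DEGs with higher and 0 with lower values, beside 3.92% and 2.09% of all genes. Bhlhe40 encodes a repressor that competes for E-boxes and responds to many stress signals. It was at 24.8 to 36.9 FPKM in NC livers, 60.7 to 71.7 FPKM in the APAP group and 17.4 to 21.0 FPKM in the AMSC group. It thus rose after APAP (log2 fold change 1.03, adjusted p = 0.00464), and with AMSCs it was lower than in the APAP group (-1.72, SE 0.13, adjusted p = 0.00175) and the NC group (-0.69, adjusted p = 0.0144). Ciart encodes a repressor of the activating pair and holds CACGTG at 116, 58 and 44 bases before its start. It was at 5.37 to 9.07 FPKM in NC livers and 5.74 to 8.96 FPKM in the APAP group, but at 15.6 to 16.5 FPKM in the AMSC group. The log2 fold change of Ciart was 1.10 against the APAP group (SE 0.16, adjusted p = 0.0158) and 1.09 against the NC group (adjusted p = 0.00239).

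**Figure D4:**
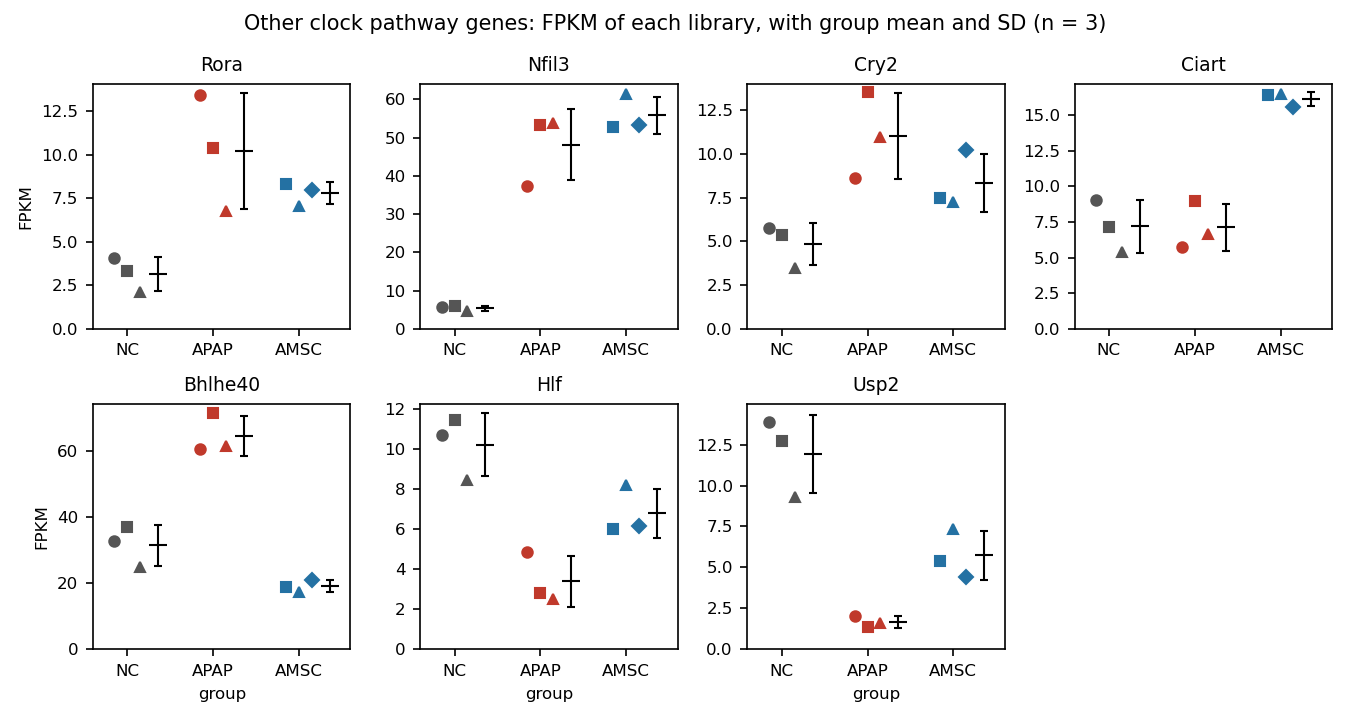
FPKM of other genes of the clock pathway in each of the 9 livers, with points shaped by replicate number and black bars for the group mean ± SD (n = 3). Ciart is highest and Bhlhe40 lowest in the AMSC group, while Nfil3 is high in both groups that received APAP.

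Nfil3, which encodes the repressor that competes with DBP and TEF for D-boxes, rose as those factors fell. It was at 4.62 to 5.94 FPKM in NC livers, 37.4 to 53.8 FPKM in the APAP group and 52.7 to 61.3 FPKM in the AMSC group. The log2 fold change of Nfil3 was 2.93 for APAP against NC (adjusted p = 6.47e-05) and 0.22 for AMSC against APAP (adjusted p = 0.512). Hlf, the remaining PAR bZIP activator, fell with Dbp and Tef from 10.2 ± 1.57 to 3.38 ± 1.27 FPKM (log2 fold change -1.38, adjusted p = 0.00362). In the AMSC group Hlf was at 6.78 ± 1.22 FPKM, which did not pass the test against the APAP group (0.85, adjusted p = 0.0763). Cry2, the second cryptochrome gene, was at 4.86 ± 1.23, 11.0 ± 2.45 and 8.34 ± 1.66 FPKM in the NC, APAP and AMSC groups, with a log2 fold change of 1.04 for APAP against NC (adjusted p = 0.0102). Cry2 therefore passed the test where Cry1 did not, and their difference was not itself tested.

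Among 9 of 11 kinases and ubiquitin ligases of clock proteins that passed the filter, 4 passed the adjusted p with higher values in the APAP group than in the NC group, each below the fold threshold, beside 25.9% of all genes in either direction. The count was also 4 for AMSC against NC livers, again all higher and none a DEG, beside 26.0% of all genes. Of 15 rhythmic liver genes, 4 were DEGs with higher and 5 with lower values after APAP, beside 5.09% and 2.80% of all genes. Between the AMSC and APAP groups, 4 were DEGs with higher and 0 with lower values, beside 0.742% and 1.22% of all genes. For AMSC against NC livers, 4 were DEGs with higher and 3 with lower values, beside 3.92% and 2.09% of all genes. Cyp7a1, the rate-limiting enzyme of bile acid synthesis and a known target of the clock output, fell from 62.2 ± 10.9 to 1.13 ± 0.795 FPKM (log2 fold change -4.96, adjusted p = 6.47e-05). It was at 3.83, 15.1 and 3.25 FPKM in the AMSC livers (1.78 against APAP, adjusted p = 0.111). Cyp2a5, a cytochrome P450 gene with near-identical relatives whose reads may be split, fell from 519 ± 138 to 26.2 ± 27.1 FPKM (-4.87, adjusted p = 0.00433). In the AMSC group it was at 299 ± 109 FPKM (4.05 against APAP, adjusted p = 0.0373).

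Rgs16, a regulator of G-protein signalling that rises in fasted liver, and Insig2, which restrains lipid synthesis, were among the rhythmic genes that rose after APAP. The log2 fold change was 3.28 for Rgs16 (adjusted p = 0.00100) and 2.16 for Insig2 (adjusted p = 0.000635). Insig2 was higher still in the AMSC group (0.81 against APAP, adjusted p = 0.0373). Usp2, a ubiquitin protease gene named here after its values were seen, was at 11.96 ± 2.39, 1.65 ± 0.349 and 5.73 ± 1.48 FPKM in the NC, APAP and AMSC groups. It fell after APAP (-2.28, adjusted p = 0.000185) and was a DEG with AMSCs (1.33, adjusted p = 0.0124).

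A list of 11 genes tied to acute signals that reach the Per genes held both carriers and targets of such signals. Of these, 10 passed the filter and 3 were DEGs after APAP, all higher, beside 5.09% of all genes. For AMSC against NC livers 4 were DEGs, also all higher, beside 3.92% of all genes. For APAP against NC livers, the immediate-early genes Egr1 and Fos had log2 fold changes of 7.53 (adjusted p = 4.67e-06) and 6.46 (adjusted p = 1.87e-05). Klf9, which responds to glucocorticoids, rose by 1.499 in the same comparison (adjusted p = 0.0130). Fkbp5, another glucocorticoid target, was the DEG of this list between the AMSC and APAP groups, at 31.1 to 41.9 FPKM against 11.3 to 15.7 FPKM (log2 fold change 1.38, adjusted p = 0.00812). In APAP against NC, Fkbp5 did not pass the test (0.41, adjusted p = 0.0776). Tsc22d3, a glucocorticoid target of the rhythmic list named here after its values were seen, went the other way. It was lower than in the NC group after APAP (-1.25, adjusted p = 0.000448) and with AMSCs (-1.05, adjusted p = 0.000486). A response to glucocorticoids was not tested.

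The genes whose log2 values followed a member most closely over the 9 libraries were taken by Pearson's r, as a description over points that share the 3 groups. For Arntl these were Sirt1 (0.987), Gdf15 (0.984), Zfp703 (0.982), Cerk (0.979) and Il4ra (0.978). For Per1 they were Slc19a2 (0.989), Dnmbp (0.974), Errfi1 (0.974), Hspa8 (0.968) and Myc (0.965). For Dbp they were Mtrf1 (0.991), Gm12354 (0.977), Tcta (0.977), Zfyve21 (0.975) and Per3 (0.974).

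Markers of cell types were read beside these values. Of 6 hepatocyte markers, 5 were found under the symbol listed. Their summed level was 38442 to 41614 FPKM in NC livers and 55231 to 64226 FPKM in the APAP group. In the AMSC group it was 48098 to 50782 FPKM, and all these sums were far above those of the other lists. Most of each sum was Alb. After APAP, 3 of the 5 passed the adjusted p with higher values, beside 25.9% of all genes in either direction. Ttr (0.17, adjusted p = 0.501) and Cps1 (-0.14, adjusted p = 0.633) did not pass. Neutrophil markers (3 of 6 past the filter, Ly6g among those near 0) summed to 0.330 to 1.84 FPKM in NC livers, 7.58 to 35.0 FPKM in the APAP group and 4.38 to 6.01 FPKM in the AMSC group. The 4 erythrocyte markers summed to 126 to 243 FPKM, 286 to 1306 FPKM and 170 to 289 FPKM in the same order. The 4 cholangiocyte markers summed to 2.43 to 4.96, 23.0 to 37.6 and 5.24 to 5.62 FPKM, most of it Sox9 in the APAP group. Sums of the 6 macrophage markers (52.3 to 105, 77.6 to 168 and 43.4 to 69.6 FPKM), the 5 endothelial markers (14.7 to 32.7, 17.6 to 45.7 and 15.8 to 17.4 FPKM) and the 6 stromal markers (18.6 to 33.9, 23.6 to 53.9 and 23.8 to 40.6 FPKM) overlapped between the NC and APAP groups. The macrophage and endothelial sums of all AMSC livers lay below those of all APAP livers. Of the macrophage markers, Cd68 was a DEG after APAP (log2 fold change 1.38, adjusted p = 0.00337). It was also a DEG between the AMSC and APAP groups (-1.24, adjusted p = 0.0267). The other 5 macrophage markers did not pass the adjusted p in these comparisons. The part of the listed cell types in the clock gene values was not tested.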

How the data were processed

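RNA-seq of 9 mouse livers was analysed, 3 per group. The authors deposited FPKM values per gene, with the gene length used, on GRCm38 by the labels (submitters' processing notes), and 98.33% of 54409 shared identifiers had the start and end of GENCODE vM21. The aligner and counting program are not given in the sources used here. Once multiplied by gene length, 100% of the values were whole multiples of a step per library (tolerance 0.1 read), so whole reads were recovered.

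A pseudocount of 1 was added to FPKM values before the log2. Genes averaging 1 FPKM or more were tested with limma 3.58.1 (R 4.3.3, lmFit and eBayes with trend), with 2 groups per fit and Benjamini-Hochberg adjustment over all 9699 genes. Since the unit was FPKM, a count test was not the main test. The script was tested on simulated data. Members, lists and tests were chosen with earlier results of these data known. Genes named were all members, all genes past the filter of the lists of activators, other repressors and PAR bZIP factors, up to 4 DEGs with the largest change in any comparison of each other list, and for Arntl, Per1 and Dbp the 5 genes of highest r. A result under this rule is not reported here.

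The settings tried beside this were protein-coding genes alone, 1 fit over all 9 libraries, quantile normalization, median-of-ratios rescaling, a pseudocount of 0.1, a minimum mean of 5 FPKM, all genes above 0, a replicate block, limma without trend, voom on recovered reads, and leaving out each library. Voom with library totals was chosen after seeing the data. The deviations from the group mean of libraries with the same number correlated at 0.213, 0.160 and 0.378 between the APAP and NC groups. Libraries with different numbers were not compared in this way, and the sources used here do not say that livers were paired. Pairing was therefore not established, and the main fits left it out. The number of NC replicate 3 is that of its description, and its title gives another. Promoters were from RefSeq. Figures were drawn with Python 3.11.15, numpy 2.4.6 and matplotlib 3.10.9.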

Additional observations from a re-analysis of the deposited data

How the results depend on the processing

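Of the log2 fold changes of single members under all alternatives, 475 kept their direction and their DEG call or lack of it, 11 lost the call, 3 gained it and 6 changed sign. The sign changes were all of values that passed no test. Clock in AMSC against APAP was 0.20 with the replicate block and 0.14 without APAP replicate 1 (-0.27 to 0.14 over the left-out libraries). Per1 was 0.029 with voom on library totals and 0.15 without APAP replicate 2 (-0.14 to 0.15), Nr1d1 was 0.021 without APAP replicate 2 (-0.36 to 0.021), and Cry1 in APAP against NC was 0.059 without NC replicate 2 (-0.14 to 0.059). The balance of the arms in AMSC against APAP was -0.14 and became 0.034 without APAP replicate 1 (-0.29 to 0.034). It was 0.14 to 0.46 in APAP against NC and 0.13 to 0.23 in AMSC against NC over the left-out libraries, and a pseudocount of 0.1 gave 1.28 and 0.94 in place of 0.32 and 0.18.

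With a mean of at least 5 FPKM, only 5 members were tested, of which 5 were DEGs in APAP against NC and 3 in AMSC against NC. Leaving out a library gave 6 to 8 and 4 to 5 clock DEGs there and 0 in AMSC against APAP. Among all genes, the DEGs of APAP against NC were 766, with 1148 at a pseudocount of 0.1, 478 at a mean of at least 5 FPKM, 1197 with voom and 1441 with voom on library totals. Those of AMSC against NC were 583, with 915, 968 and 1046 at the pseudocount and both voom fits. Those of AMSC against APAP were 190, with 21 for all genes above 0, 102 at a mean of at least 5 FPKM, 296 and 308 with voom, 335 with the replicate block and 90 to 229 over the left-out libraries. The cause was not tested. Voom on library totals moved the median of all genes to -0.27, 0.082 and -0.17 in APAP against NC, AMSC against APAP and AMSC against NC, and no clock DEG changed direction.

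Calls lost in APAP against NC, beyond those given above for left-out libraries, were Per1 with all genes above 0 (adjusted p = 0.108), Nr1d2 (0.98 and 0.85 on the log2 scale with quantile normalization and voom on library totals) and Arntl (0.93 with quantile normalization). In AMSC against NC, Per1 was lost with all genes above 0 (adjusted p = 0.0918), and Arntl became a DEG at a pseudocount of 0.1 (1.92), with voom (2.25) and with voom on library totals (2.06). Short of the DEG call, the adjusted p of Tef in AMSC against APAP was 0.127 with all genes above 0 and 0.169 with the replicate block. In AMSC against NC it was lost by Tef with all genes above 0 (0.0810), all 9 libraries in 1 fit (0.0737), limma without trend (0.0512) and the block (0.541), and by Arntl (0.0571) and Nr1d2 (0.0510) with the block, and was gained by Cry1 with voom on library totals (0.0436). The replicate block gave 8 clock DEGs in APAP against NC. The other comparisons shared only the numbers 2 and 3, whose deviations correlated at -0.104 and -0.293 in AMSC against APAP and -0.199 and -0.309 in AMSC against NC. There the block left out a library per group and gave 0 and 5 clock DEGs, with 0 and 5 members past the adjusted p in place of 1 and 8. Since 1 read per kilobase was worth 0.0578 to 0.0807 FPKM, counting error limits Per3 and Arntl most.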
